A study of Mus musculus with 4 samples.

Results

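Messenger RNA of 9 genes of the oligodendrocyte lineage and of myelin was examined in the embryonic mouse cortex with and without Qk, the gene of the RNA-binding protein Quaking. The 9 genes, taken by their symbols, were the transcription factors Olig1, Olig2 and Sox10, the growth factor receptor Pdgfra, the myelin genes Mbp, Mag, Cnp and Mobp, and the proteolipid family gene Gpm6b. They are 9 of the 23038 genes in the deposited expression files, and all 9 had tags and entered the test. The splicing files held 25 events of these genes among 38240 events in all. The samples were E14.5 cortices of 2 control embryos, Qk fl/fl by the study's account and wild type by the labels, and of 2 Qk cKO embryos, Nestin-cre:Qk fl/fl. By the study's account, then, both groups carried floxed Qk alleles and the Qk cKO embryos alone carried Cre. Cre under the Nestin promoter acts in neural progenitors and the cells that arise from them, so that cells of other origin in the cortex, such as vessels, meninges and blood, keep an intact Qk. Each library was made from poly-A selected RNA of whole cortex, and the embryos were littermates.

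Oligodendrocytes wrap axons in myelin, and they arise from precursor cells that express Olig1, Olig2 and Sox10. These precursors divide in response to PDGF through the receptor encoded by Pdgfra. In the forebrain the first precursors come from the ventral wall under Sonic hedgehog signalling and later migrate into the cortex, and myelin itself forms only after birth. Quaking is best known from the quaking mouse, whose myelin fails to form, and it binds and regulates the splicing, transport and stability of several myelin mRNAs, of which Mbp and Mag are the classic examples. It binds RNA at a short motif with the core ACTAAC. At E14.5 the neural progenitors of the cortex express Quaking, but the cortex holds no myelin.

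Qk itself was checked first. On the minus strand of chromosome 17, the junction of exon 2 to exon 3 of Qk held 635 and 565 tags in the 2 controls but 63 and 68 in the 2 Qk cKO samples. A tag is the unit that the quantification software Quantas counts. The junction of exons 3 and 4, which lies outside the deletion, held 574.0 and 439.4 tags in control and 897.5 and 830.3 in Qk cKO. Per 100 tags on that junction, the control samples had 110.6 and 128.6 and the Qk cKO samples 7.02 and 8.19. This ratio was 6.40% of control over summed tags (Fisher's exact test of the 2 junctions by group, two-sided, p = 4.80e-251). Since the exon 3-4 tags rose, the ratio fell further than the exon 2-3 tags alone. The labels of all 4 samples therefore fitted the exon 2-3 junction.

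The libraries held between 37942046 and 42994832 tags on genes, and the TMM scaling factors lay between 0.989 and 1.01. Both replicate 1 embryos expressed Xist (57.1 and 64.5 RPKM) and both replicate 2 embryos hardly did (0.0265 and 0.00951 RPKM), so each group held 1 embryo of each sex by this marker. RPKM is the number of tags on a gene scaled to the length of its exons and to the size of the library, so that levels can be compared between genes. Summed RPKM of 14 markers of the subpallium, the ventral source of the earliest precursors, was 196.3 and 203.7 in control and 207.1 and 204.1 in Qk cKO, and none of them was called. Without overlap of the groups, 3 of the 14 were lower and 5 higher in Qk cKO, where 36.9% of all genes did not overlap. The sum therefore does not show that each marker was level. Markers of the dorsal cortex were present at 430.1 to 483.0 summed RPKM, as the label of the tissue requires. Of 15 markers of hypothalamus and diencephalon, 6 were called lower in Qk cKO, with summed RPKM of 14.53 and 24.04 in control and 10.93 and 8.987 in Qk cKO. Of 12 radial glia markers, 6 were called lower, with summed RPKM of 1855.5 and 1746.0 in control and 1488.6 and 1423.1 in Qk cKO. Over all genes, 0.377% were called lower. Without overlap of the groups, 12 of the 15 and 9 of the 12 markers were lower and 0 higher, where 36.9% of all genes did not overlap. These lists contain 6 and 5 genes that the study itself lists as changed, so that their counts are not independent evidence, and among the remaining 9 and 7 genes 1 was called in each list.

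None of the 9 genes passed the test for a changed level in Qk cKO (quasi-likelihood test of edgeR, adjusted by Benjamini-Hochberg over 18834 genes, called at p below 0.01 and FDR below 0.1). Over all genes tested, 110 were called, which is 0.584%, so that a count of 0 of 9 lies at the background. At an unadjusted p below 0.05 there were 2 of the 9, Olig1 and Mbp, against 8.76% of all genes. The exact test of edgeR called none of them either. DESeq2 called none of the 3 members for which it gave an adjusted p, Pdgfra, Mbp and Gpm6b, and gave none for the other 6. The 2 groups did not overlap in 4 of the 9 genes, Olig1, Olig2 and Cnp with lower and Mbp with higher values in Qk cKO, whereas 36.9% of all genes had groups that did not overlap. The median log2 fold change of the 9 genes was -0.08, and that of all genes tested was -0.003.

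**Figure D1:**
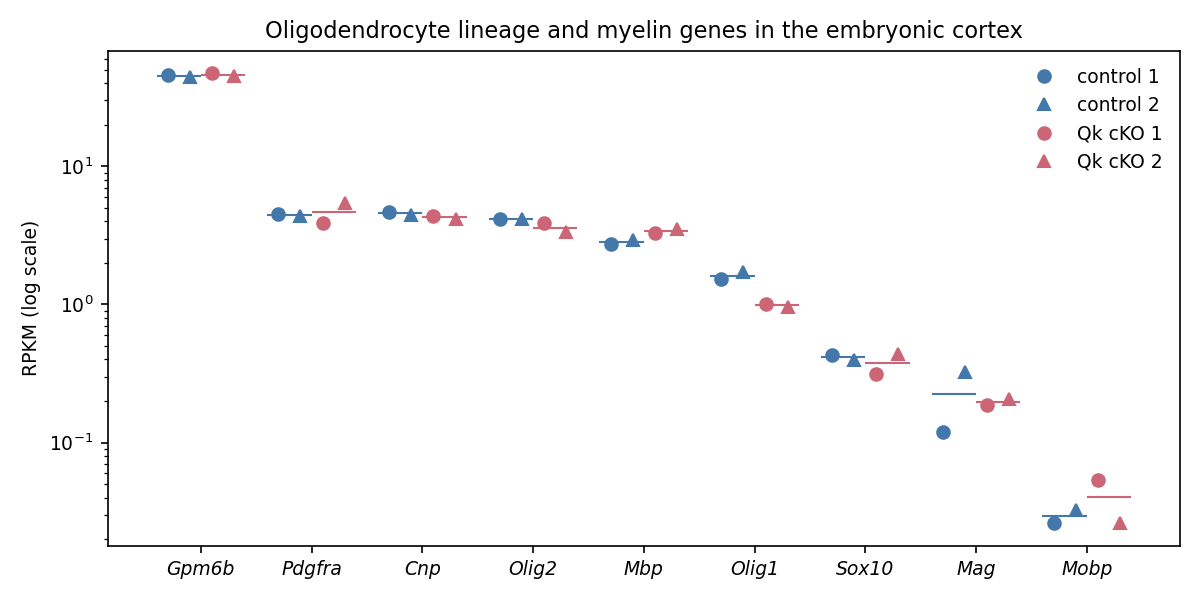
Levels of the 9 genes in each of the 4 samples, as RPKM on a log scale, with a short line at the mean of each group of 2. Gpm6b lies near 45 RPKM, Pdgfra, Cnp, Olig2, Mbp and Olig1 between 0.964 and 5.42, and Sox10, Mag and Mobp under 1 in every sample.

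The levels of the 9 genes spanned 3 orders of magnitude on the RPKM scale. Gpm6b had a mean of 45.5 RPKM over the 4 samples, above 91.3% of the tested genes. Pdgfra (4.56), Cnp (4.41), Olig2 (3.88), Mbp (3.12) and Olig1 (1.30) followed, and between Pdgfra and Cnp the difference was smaller than the spread between samples. Sox10 (0.395), Mag (0.210) and Mobp (0.0347) came last, with Mobp above only 9.98% of the tested genes. In a sample of whole cortex, fewer cells of a type and less RNA per cell cannot be told apart.

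Olig1 and Olig2 encode basic helix-loop-helix factors that lie side by side on chromosome 16 (Olig2 at chr16:91225457-91228677 and Olig1 at chr16:91269772-91271933, plus strand, mm10). Olig1 had 1.52 and 1.72 RPKM in control replicates 1 and 2, and 1.01 and 0.964 RPKM in Qk cKO replicates 1 and 2. These values rest on 137, 142, 94 and 86 tags. Olig1 was highest in control replicate 2 and lowest in Qk cKO replicate 2, as was the sum of the hypothalamus and diencephalon markers above. The part of such tissue in the Olig1 values was not tested. Both Qk cKO samples lay below both controls, with means of 1.62 ± 0.142 RPKM (SD, n = 2) in control and 0.986 ± 0.0301 RPKM (SD, n = 2) in Qk cKO. The log2 fold change of Olig1 was -0.70 ± 0.22 (SE), with an FDR of 0.259 by edgeR, so that the difference did not pass the threshold. It had the largest ratio of change to standard error among the 9 genes, and its FDR lay between 0.240 and 0.920 over the alternatives tried.

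Olig2, which specifies the lineage and also marks ventral progenitors of motor and interneuron fates, had 4.17 and 4.16 RPKM in control and 3.86 and 3.33 RPKM in Qk cKO. Its tags numbered 421 and 385 in control and 404 and 333 in Qk cKO, and the sample that stood apart was Qk cKO replicate 2. The log2 fold change was -0.20 ± 0.13 (SE) with an FDR of 0.750 by edgeR. Olig1 and Olig2 were thus both lower in Qk cKO without overlap, but neither difference was called.

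Sox10, an SRY-box factor of oligodendrocytes and of the neural crest (chr15:79154908-79165240, minus strand), had 0.433 and 0.396 RPKM in control and 0.315 and 0.437 RPKM in Qk cKO. With 49, 41, 37 and 49 tags the 2 groups overlapped. The log2 fold change was -0.13 ± 0.36 (SE), and at this depth a change of moderate size in either direction was not detectable. Sox10 is also expressed in the neural crest and in Schwann cell precursors. The 10 markers of these cells had 4.81 to 5.75 summed RPKM, most of it from the neurotrophin receptor gene Ngfr with 3.37 to 4.21 RPKM, and the neuregulin receptor gene Erbb3 had 0.138 to 0.198 RPKM. The part of these cells in the Sox10 signal was not tested.

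Pdgfra, the receptor for PDGF-AA on oligodendrocyte precursors (chr5:75152292-75198215, plus strand), had 4.54 and 4.39 RPKM in control and 3.87 and 5.42 RPKM in Qk cKO. The lowest and the highest value of the 4 samples were thus the 2 Qk cKO samples, and the log2 fold change of 0.07 ± 0.12 (SE, FDR = 0.914 by edgeR) was smaller than their distance. Pdgfra is also expressed in mesenchyme and meninges. The summed RPKM of 12 markers of mesenchyme and meninges, Pdgfra among them, was 147.1 and 135.9 in control and 134.1 and 181.7 in Qk cKO, with the same samples lowest and highest as for Pdgfra. The part of these cells in the Pdgfra signal was not tested. Cspg4, which encodes the NG2 proteoglycan of precursors and pericytes and was added after its values were seen, stood at 0.887, 0.769, 0.667 and 0.854 RPKM.

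Mbp encodes the myelin basic proteins, and its locus also makes the golli proteins from a promoter far upstream of the classic one (chr18:82475146-82585637, plus strand). Mbp had 2.73 and 2.94 RPKM in control and 3.31 and 3.50 RPKM in Qk cKO, from 742, 733, 935 and 944 tags. Both Qk cKO samples lay above both controls, and the log2 fold change was 0.28 ± 0.11 (SE), with an FDR of 0.432 by edgeR, which did not pass the threshold. Leaving out each sample in turn gave 0.23 to 0.33.

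The junction tags of Mbp at 1 exon separate golli from classic mRNAs there, although they are few beside the tags of the whole gene. The 431-nt exon at chr18:82554320-82554750 is joined in golli transcripts to an exon that ends at 82522137, and 11 of the 16 transcripts in the annotation, the classic ones, begin inside it at 82554470 or later. The junction from the golli exon into the 431-nt exon held 34 and 35 tags in the controls against 54 and 43 in Qk cKO. The junction from the 431-nt exon to the next one, which golli and classic mRNAs share and which starts at 82572825, held 7 and 2 tags in the controls against 1 and 1 in Qk cKO. The exon itself held 131, 117, 167 and 134 tags. Most of the spliced Mbp signal at this exon therefore came from golli transcripts, and few tags left the exon toward the exons of classic MBP. The annotation holds 1 golli transcript that ends in an extended form of this exon, chr18:82554320-82558703, with its stop codon at 82554766-82554768. The tags that reached the exon numbered 69 in control and 97 in Qk cKO over both samples, and those that left it 9 and 2. None of the 8 Mbp events reached the minimum of 20 tags of coverage that the test required, and the 3 variable exons of classic MBP that the events cover, of 33, 78 and 123 nt, had at most 1 tag on either inclusion junction in any sample.

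**Figure D2:**
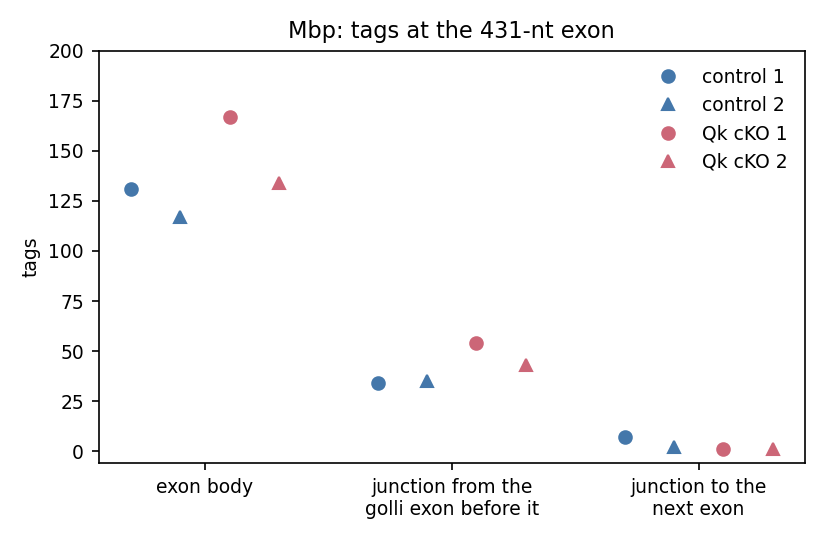
Tags in each of the 4 samples on the body of the 431-nt exon of Mbp, on the junction that enters it from the golli exon and on the junction that leaves it. Between 34 and 54 tags enter the exon and between 1 and 7 leave it.

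Cnp encodes the enzyme CNPase, which is made early in the lineage and is found in other cells at low levels (chr11:100574904-100591729, plus strand). It had 4.64 and 4.47 RPKM in control and 4.37 and 4.17 RPKM in Qk cKO. The groups did not overlap, but the log2 fold change was only -0.08 ± 0.12 (SE), with an FDR of 0.894 by edgeR. Cnp had no event in the splicing files.

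Mag and Mobp encode proteins of mature myelin, a sialic acid-binding adhesion protein of the inner myelin membrane and a small basic protein of compact myelin, and both were near the limit of detection. Mag (chr7:30899176-30914873, minus strand) was supported by 18 and 45 tags in the controls and by 29 and 31 in Qk cKO, or 0.120, 0.327, 0.186 and 0.208 RPKM. The 2 Qk cKO samples lay between the controls, and the log2 fold change of -0.16 ± 0.48 (SE) had no stable sign. Mobp (chr9:120149707-120181484, plus strand) was supported by 7 and 8 tags in the controls and by 15 and 7 in Qk cKO, with a log2 fold change of 0.47 ± 0.88 (SE). A moderate difference in either gene was not detectable at this depth. The 45-nt exon near the 3' end of Mag, at chr7:30900352-30900396, whose inclusion yields the short form of the protein, had 0, 6, 1.96 and 11 inclusion junction tags in the 2 controls and the 2 Qk cKO samples, in this order, against 0, 0, 0.520 and 0 tags that skip it. With a coverage of 0.520 it was not tested.

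**Figure D3:**
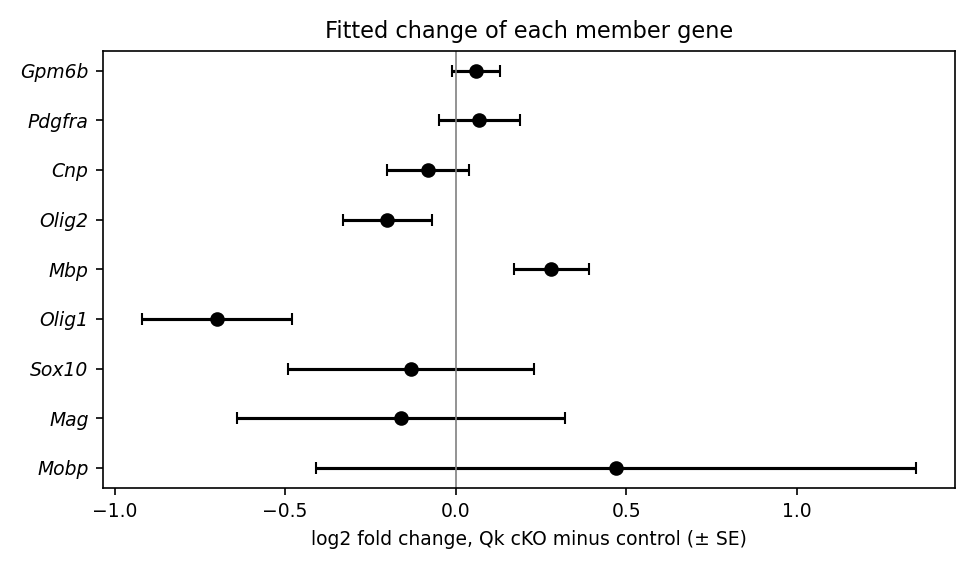
Log2 fold change of each of the 9 genes, Qk cKO minus control, with its standard error from edgeR's test. Olig1 at -0.70 and Mbp at 0.28 lie farthest from 0 in units of their error, and Mag and Mobp have the widest errors, 0.48 and 0.88.

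Gpm6b, the most abundant of the 9 genes, encodes the neuronal and glial membrane protein M6B, a proteolipid with several forms made by alternative splicing (chrX:166238911-166388988, plus strand). It had 45.7 and 44.1 RPKM in control and 47.2 and 45.2 RPKM in Qk cKO, and the groups overlapped. The log2 fold change was 0.06 ± 0.07 (SE, FDR = 0.894 by edgeR), the smallest error among the 9 genes. Since Gpm6b lies on the X chromosome, its values are given beside the sex marker above, and within replicate 1 and within replicate 2 the Qk cKO value was the higher of the 2.

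The level of Gpm6b did not pass the test, but its splicing changed. Of the 25 events of the 9 genes, 7 reached the coverage minimum and all 7 were in Gpm6b, and 3 of these 7 were called (Fisher's exact test on isoform tags summed over the 2 replicates of a group, with Benjamini-Hochberg adjustment within each event type). Of all 11500 events tested, 862 were called, which is 7.50%. With edgeR's isoform by genotype interaction, which includes the variation between embryos, 64 events were called, or 0.557%, and the same 3 Gpm6b events were among them. The 3 events are descriptions of 1 choice, since they share their junction tags.

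That choice is a 91-nt exon just before the last exon, at chrX:166385391-166385481. The exon before it, at chrX:166383935-166384000, is joined either to the 91-nt exon or directly to the last exon, which begins at 166386952. Both ways carry their own end of the reading frame in the GENCODE annotation. In 6 of the 12 annotated Gpm6b transcripts the stop codon lies within the 91-nt exon, at 166385469-166385471, after 26 codons, and in 3 transcripts that lack the exon it lies in the last exon, at 166387099-166387101, after 49 codons. The sequences below are those of mm10 on the plus strand, read from the annotated transcripts. The exon before the choice, which both ways share, is shown first. The other sequences are the parts that the choice exchanges, each from the start of its exon to the stop codon, which is in capitals.
Gpm6b exon before the choice, chrX:166383935-166384000: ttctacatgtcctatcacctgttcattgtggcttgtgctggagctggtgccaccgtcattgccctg
Gpm6b 91-nt exon to its stop codon, chrX:166385391-166385471: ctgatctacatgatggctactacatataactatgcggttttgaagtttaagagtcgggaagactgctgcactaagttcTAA
Gpm6b last exon to its stop codon, chrX:166386952-166387101: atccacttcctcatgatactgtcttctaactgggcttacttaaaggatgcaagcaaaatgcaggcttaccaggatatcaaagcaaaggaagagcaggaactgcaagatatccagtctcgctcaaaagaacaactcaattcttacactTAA

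The junction into the 91-nt exon held 124.5 and 112.1 tags in the controls against 42.5 and 31.9 in Qk cKO. The junction out of it, to the last exon, held 54.3 and 46.7 against 23.3 and 22.3 tags. The junction that skips it held 905.5 and 709.9 against 1046.5 and 972.1 tags. Both inclusion junctions thus had fewer tags in each Qk cKO sample than in each control, and the skipping junction had more. Per 100 skipping tags, the tags into the exon numbered 13.7 and 15.8 in control and 4.06 and 3.29 in Qk cKO, a 3.97-fold difference over summed tags.

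The inclusion of the exon, calculated from its junction tags with the 2 inclusion junctions averaged, was 8.98% (95% Wilson interval 7.36 to 10.9) and 10.1% (8.15 to 12.4) in control replicates 1 and 2. It was 3.05% (2.18 to 4.25) and 2.71% (1.87 to 3.91) in Qk cKO replicates 1 and 2. The intervals cover counting error only, and those of the 2 groups did not overlap. The difference in inclusion, ΔI as control minus Qk cKO, was 0.0657 over summed tags (Fisher's exact test, FDR = 5.47e-21). Fisher's exact test and edgeR's interaction test used isoform tags, not the junction tags of these percentages. The isoform tags of inclusion, equal to the tags on the exon, numbered 238.5 and 210.1 in control and 132.5 and 106.9 in Qk cKO. Such tags can also come from RNA that was not spliced into the exon. By edgeR's interaction test the log2 ratio of these tags to the skipping tags fell by 1.23 in Qk cKO. Its standard error was 0.16 and its FDR 0.0244. With junction tags only, the FDR by Fisher's exact test was 1.83e-30. The same choice can be described as 2 alternative 3' splice sites with the downstream junction left out. By junction tags, upstream site use was then 12.1% and 13.6% in control and 3.90% and 3.18% in Qk cKO, with ΔI = 0.0922. The FDR of 0.0287 by edgeR again came from isoform tags. Those of the upstream site numbered 881.5 and 741.1 in control and 512.5 and 504.9 in Qk cKO, far more than its junction tags. With junction tags only, the FDR by Fisher's exact test was 9.72e-25.

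**Figure D4:**
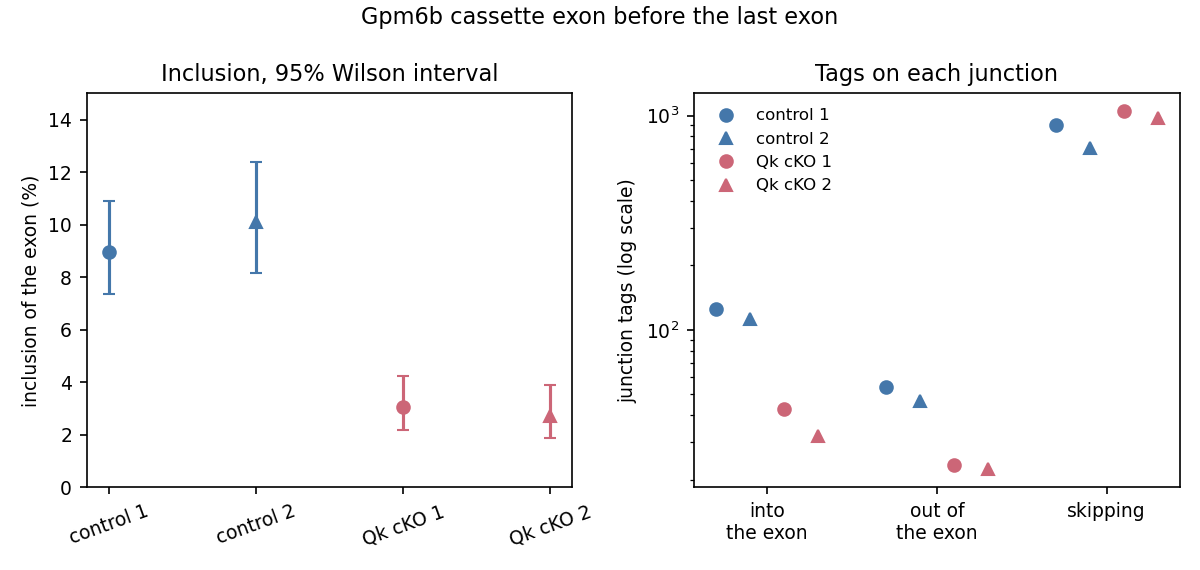
Left, inclusion of the 91-nt exon of Gpm6b in percent in each sample, with its 95% Wilson interval. Right, tags on the junctions into the exon, out of it and past it, on a log scale. Inclusion lies at 8.98% and 10.1% in control and at 3.05% and 2.71% in Qk cKO, and only the skipping junction has more tags in Qk cKO.

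Not every molecule that reached the 91-nt exon went on to splice to the last exon. In control the tags into the exon were 2.29 and 2.40 times those out of it, and in Qk cKO 1.82 and 1.44 times. In 3 of the annotated transcripts the exon runs on through the 1470-nt intron after it, chrX:166385482-166386951, into the last exon. Retention of this intron, by the tags across its ends, was 70.3% and 70.1% in control and 79.0% and 79.8% in Qk cKO, with ΔI = -0.0915. Both Qk cKO samples lay above both controls, but the event was not called (p = 0.0137, FDR = 0.162 by Fisher's exact test, and FDR = 0.683 by edgeR's interaction). The files list this intron as 2 events with the same tags. The tags across its 2 ends together numbered 257.3 and 218.8 in control and 175.3 and 175.4 in Qk cKO. The tags spliced into the 91-nt exon numbered 124.5 and 112.1 in control and 42.5 and 31.9 in Qk cKO. Tags across the ends can also come from RNA that was not spliced into the exon, and the part of such RNA in the retention values was not tested.

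The intron after the 91-nt exon holds the Quaking core motif once. Only the strand of the gene was searched, for the letters ACTAAC, since the motif is read in RNA. The match starts at 166386762, 1281 bases past the 91-nt exon and 190 bases before the last exon, and it is shown with the bases around it, motif in capitals.
Gpm6b intron, chrX:166386750-166386779: ctatatgtgcatACTAACgtttcttcaacc
The first 300 bases of the intron hold no such match. For comparison, the last 300 bases before the next exon could be read from annotated transcripts for 525 of the 4600 tested cassette exons, and 5.90% of these hold ACTAAC. The first 300 bases after the exon could be read for 686, of which 6.12% hold it, and the last 300 bases before the exon for 588, of which 4.42% hold it. The window before the next exon was not planned and is the 1 that holds the Gpm6b match. The search covered all 1470 bases of the Gpm6b intron. These shares of 300-base windows therefore do not tell how often an intron of that length holds a match. The intron before the Gpm6b exon could not be read from these transcripts. A match describes the sequence and does not show that Quaking binds there.

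The other tested Gpm6b events that are not described above lie upstream of this choice. An exon of 120 nt at chrX:166353565-166353684, whose insertion lengthens the N-terminal part of the protein, was included at 27.1% and 25.5% in control and at 25.9% and 24.3% in Qk cKO. Its ΔI was 0.0110 with an FDR of 0.781 by Fisher's exact test, and the 2 groups overlapped. A second event that pairs this exon with the 147-nt exon after it gave a ΔI of 0.00445 and an FDR of 0.845. The 147-nt exon at chrX:166367028-166367174 was included in under 1% of molecules in every sample, from 0.276% to 0.843%, and its events did not reach the coverage minimum.

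The other members had no event that could be tested. Olig1, Olig2, Pdgfra and Cnp have no event in the files. Sox10 and Mobp have 1 event each, and Mag has 4, all with a coverage of at most 0.520 tags.

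The other genes of the same pathways were counted from lists that together hold 71 tested genes beside the 9. Of these 71 genes, 1 was called, Nkx2-2, against 0.584% of all genes, and 11 had an unadjusted p below 0.05, against 8.76% of all genes. Groups did not overlap in 29 of the 71, 13 lower and 16 higher in Qk cKO, a share of 40.8% against 36.9% of all genes. The median log2 fold change of the 71 genes was -0.00.

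Among 24 tested precursor genes, Nkx2-2 was called lower, where 0.377% of all genes were called lower. Nkx2-2 is a homeodomain factor of ventral progenitors of the spinal cord and diencephalon and of oligodendrocyte precursors. Its tags numbered 27 and 73 in the controls and 11 and 4 in Qk cKO, or 0.266, 0.786, 0.105 and 0.0398 RPKM. Both Qk cKO samples lay below both controls, and the log2 fold change was -2.81 ± 0.60 (SE, FDR = 0.0547 by edgeR). The study lists Nkx2-2 among its changed transcripts, so that the call is not independent of that list. The markers of hypothalamus and diencephalon given above were likewise highest in control replicate 2 and lowest in Qk cKO replicate 2, and their part in the Nkx2-2 result was not tested. The call of Nkx2-2 was lost without control replicate 1, without control replicate 2, where the log2 fold change was -1.85, and without Qk cKO replicate 2. It was also lost with filterByExpr, edgeR's filter on low counts, and DESeq2 gave no adjusted p for Nkx2-2. Tcf7l2, a transcription factor of differentiating oligodendrocytes that is also strongly expressed in the thalamus and was added after its values were seen, stood at 6.58 and 16.7 RPKM in control and at 6.99 and 1.56 RPKM in Qk cKO, the same samples highest and lowest (log2 fold change -1.42 ± 0.39 SE, FDR = 0.179 by edgeR). Tcf7l2 passed the test under the replicate block and when Qk cKO replicate 1 was left out.

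Abundant precursor genes did not pass the test. Sox5, a partner of Sox10, had 18.0 and 18.2 RPKM in control and 18.3 and 20.1 RPKM in Qk cKO. Chd7, a chromatin remodeller, had 18.8 and 18.5 against 18.2 and 17.4 RPKM. St18, a zinc finger factor, had 10.3 and 10.2 against 11.4 and 10.4 RPKM. These genes are expressed in neural progenitors and neurons too, and at E14.5 their levels are no measure of precursors alone.

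None of 25 other myelin and mature oligodendrocyte genes was called, and 11 of them had a mean of at least 1 RPKM. The 4 highest were Sirt2, a deacetylase (79.9 and 84.6 RPKM in control, 78.8 and 70.2 in Qk cKO), Cntn2 (76.0, 74.8, 69.1 and 81.7) and Nfasc (30.4, 31.9, 30.3 and 32.1), adhesion proteins that neurons also make, and Ndrg1 (9.78, 10.5, 10.9 and 12.6). The proteolipid genes Gpm6a and Gpm6b had log2 fold changes of 0.02 and 0.06. Gpm6a, the closest relative of Gpm6b, stood at 148.5 and 140.1 RPKM in control and 145.8 and 143.7 RPKM in Qk cKO.

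**Figure D5:**
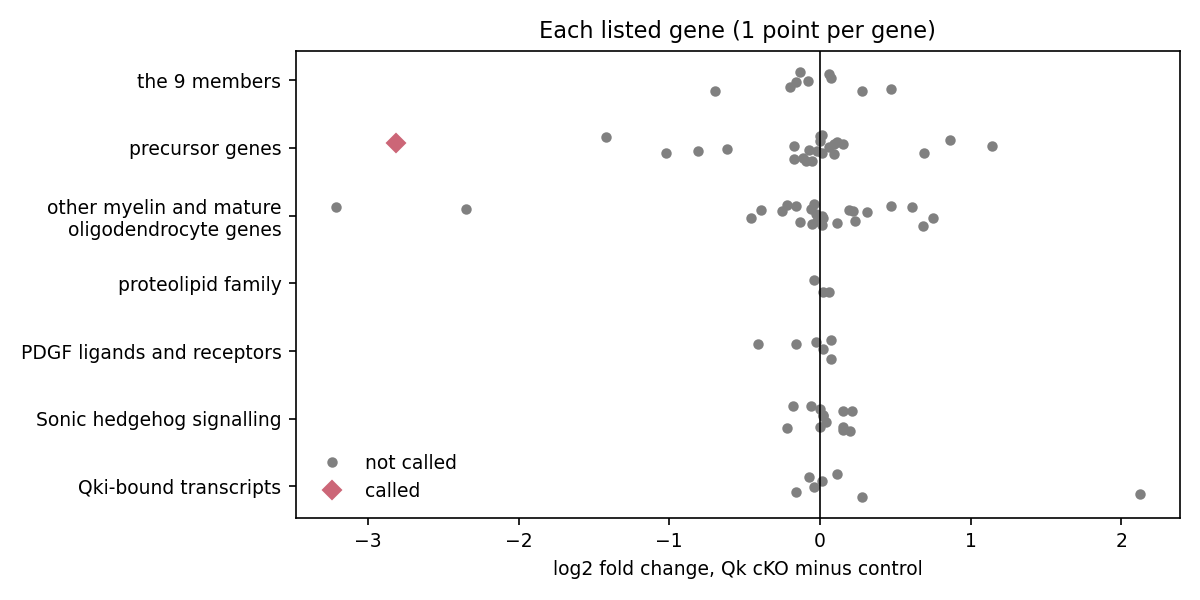
Log2 fold change, Qk cKO minus control, of each gene of the lists, 1 point per gene, with called genes as red diamonds. Nkx2-2 at -2.81 is the only called gene, and the points at -3.21 and -2.35 are genes with tags in 1 sample.

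Ligands and upstream signals were compared in the same fit. None of the 6 PDGF ligands and receptors was called. Pdgfa, the ligand that acts on Pdgfra, had 9.17 and 7.80 RPKM in control and 5.62 and 7.03 RPKM in Qk cKO, without overlap, and its log2 fold change of -0.41 ± 0.15 (SE) had an FDR of 0.335 by edgeR. Pdgfrb, the receptor of pericytes, had 8.59 and 8.89 against 8.38 and 8.56 RPKM, and Pdgfb 2.46 and 2.86 against 2.00 and 2.73 RPKM.

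None of the 13 Sonic hedgehog genes was called either. Groups did not overlap in 6 of them, 1 lower and 5 higher in Qk cKO, where 36.9% of all genes did not overlap. Ptch1, the receptor and a target of the pathway, was the gene that was lower in both Qk cKO samples than in both controls, with a log2 fold change of -0.18 ± 0.07 (SE, FDR = 0.447 by edgeR). The signal transducer Smo lay between 29.1 and 29.6 RPKM in all 4 samples, whereas the coreceptor Cdon, with 28.4 and 26.6 RPKM in control and 29.2 and 31.3 RPKM in Qk cKO, was among the 5 higher genes (log2 fold change 0.15 ± 0.06 SE, FDR = 0.429 by edgeR).

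Of 8 transcripts listed as bound by Quaking in myelinating cells, 7 were found, and none was called. Cdkn1b, the cell cycle inhibitor p27, had 22.7 and 22.7 RPKM in control and 21.2 and 21.7 in Qk cKO, and Hnrnpa1, a splicing factor, 65.1 and 60.2 against 62.3 and 71.4. In splicing, 49 events of 20 genes of these lists were tested and 2 were called by Fisher's exact test, against 7.50% of all events. They were a cassette exon of Hnrnpa1 (inclusion of 86.3% and 83.6% in control and 89.0% and 87.8% in Qk cKO, ΔI = -0.0343) and a retained intron of Boc, another hedgehog coreceptor (22.2% and 10.1% against 6.59% and 5.11%, ΔI = 0.103). By edgeR's interaction neither was called, with FDR of 0.564 and 0.684.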

How the data were processed

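Poly-A RNA of E14.5 cortices from 2 control and 2 Qk cKO embryos was sequenced as paired reads. With OLego the authors aligned them to mm10 and to exon junctions, and Quantas gave the values. They deposited estimated counts of tags per gene, which need not be whole, with RPKM values, and estimated counts of tags per isoform and junction for splicing events. The labels give 2 replicates per group, whereas the methods of the paper give 3. Nothing says whether same-numbered embryos were paired.

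Tags per gene were rounded and compared with edgeR 4.0.16 (R 4.3.3) after TMM scaling, over the 18834 genes that had any tag. Standard errors were derived from the F statistic. Events with a coverage of at least 20, the smallest row or column sum of junction tags by group, were compared with Fisher's exact test (scipy 1.17.1) on rounded isoform tags, which leaves out the variation between embryos, and with edgeR's isoform by genotype interaction. Inclusion was calculated from junction tags. On simulated data, the gene test recovered 200 of 200 genes changed by 1 on the log2 scale with 17 false calls among 18599 genes. The changed genes were drawn only from genes above a minimum level that Olig1, Sox10, Mag and Mobp did not reach. Fisher's exact test and the interaction recovered 192 and 193 of 200 events with 13 and 12 false calls among 11500. The changed events were well covered and of intermediate inclusion. The simulated events held no variation between embryos, so false calls that arise from it were not measured.

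Exon positions and sequences were taken from GENCODE M21 (GRCm38, identical to mm10), counted from 1. No genome sequence was used, so introns were read only where an annotated transcript retains them. Upstream introns of most exons were not analysed here. Genes and lists were chosen with earlier results of these data known. All 9 members are named. Of each other list, the called genes and up to 4 with the highest mean RPKM are named, except some that are not reported here, and genes outside this rule are marked where they appear. As alternatives, DESeq2 1.42.0, the exact test of edgeR, scaling by the upper quartile, filterByExpr, the replicate number as a block, junction tags only, a coverage of 10 or 50, adjustment over all event types, the mean of replicates and each sample left out in turn were tried.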

Additional observations from a re-analysis of the deposited data

How the results depend on the processing

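None of the 9 genes was called under any alternative tried, but filterByExpr kept only 8 of them and DESeq2 gave an adjusted p for only 3. The count of 3 called Gpm6b events was the same under every alternative tried. The mean of replicates changed only ΔI and kept the main calls, so it could not alter this count. The number of the 71 other lineage genes called was 1 and depended on the setting. It was 0 with filterByExpr and with DESeq2, whose adjusted p is not available for Nkx2-2, 2 with the replicate block, Nkx2-2 and Tcf7l2, and 0 to 4 with each sample left out in turn, with 0 in 3 of the 4 cases. Of the hypothalamic and diencephalic markers, 6 were called, but 1 with filterByExpr and 0 with DESeq2. DESeq2 gave no adjusted p for Cnp, whose tags outnumber those of every such marker, so that this 0 may come from missing adjusted p values. Fewer of these markers were also called without control replicate 1, without control replicate 2 and without Qk cKO replicate 2. Without control replicate 2, no gene of the whole table was called, and without Qk cKO replicate 1 428 were.

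The sign of 4 members turned when 1 sample was left out. Leaving out each sample in turn gave log2 fold changes of -0.37 to 0.07 for Sox10, -0.18 to 0.28 for Pdgfra, -0.71 to 0.72 for Mag and -0.15 to 0.89 for Mobp. The ΔI of the paired 120-nt and 147-nt exons of Gpm6b was between -7.58e-04 and 0.01 in the same way. Qk exon 2 was at 6.40% of control.

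The block used the replicate number, which coincides with sex. The deviations of same-numbered samples from their group means correlated at 0.30 over 12928 genes and at -0.08 over 12443 autosomal genes, so the number does not show a pairing. With the replicate block, the numbers of called genes rose from 110 to 192 and of called events fell from 862 to 739, and among members the counts were 0 genes and 3 events. With 2 samples in each group, a sample left out leaves a lone sample that is assumed to vary like the other group.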

Other observations

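Mog, the gene of a protein of the outer myelin surface that was chosen after its values were seen, was listed at 4.33 and 4.52 RPKM in control and 4.17 and 4.28 RPKM in Qk cKO. Its 1 cassette event had 56, 52, 61 and 63 tags on the exon but 0 tags on every junction in all 4 samples. The tags on this exon therefore give no sign of spliced Mog mRNA, and the RPKM of Mog was not taken as a level of the mRNA.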
